A study of Homo sapiens with 12 samples.

Results

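The genes described here carry calcium into and out of mitochondria, or form the pores of the outer mitochondrial membrane through which calcium and metabolites pass. The 9 members were chosen by name: MCU, MCUB, MICU2, SMDT1, MCUR1, SLC8B1, VDAC1, VDAC2 and VDAC3. They are 9 of 60649 genes in the count tables and 9 of the 16683 genes that passed the filter on low counts, so all 9 were tested. RNA was sequenced from SBC3, an established human small cell lung cancer line, grown as spheroids. Each of 4 groups had 3 libraries: control, teriflunomide alone, lurbinectedin alone, and teriflunomide with lurbinectedin (the combination). No genetic change is named for any group, so all 4 groups share the same line and differ in drug only, as far as the labels say. Teriflunomide is the active metabolite of leflunomide and inhibits the pyrimidine synthesis enzyme DHODH, which sits in the inner mitochondrial membrane. Lurbinectedin binds DNA in the minor groove and blocks transcription by RNA polymerase II. Drug doses, exposure times and the content of the control are not given in the labels, and a single line limits the groups as a model of the disease.

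Calcium released from the endoplasmic reticulum crosses the outer mitochondrial membrane through voltage-dependent anion channels, encoded by VDAC1, VDAC2 and VDAC3. It enters the matrix through the uniporter, an inner membrane complex whose pore is formed by MCU. MCUB is a paralogue of MCU that lowers the conductance of the pore, SMDT1 encodes EMRE, which couples the pore to its calcium-sensing gatekeepers, and MICU2 encodes a gatekeeper of this kind. MCUR1 is a regulator of uniporter assembly. SLC8B1 encodes NCLX, the exchanger that returns calcium from the matrix in exchange for sodium. Matrix calcium stimulates several dehydrogenases of the tricarboxylic acid cycle, and an overload opens the permeability transition pore.

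Total counts were between 23206414 and 33222162 per library. The mitochondrially encoded share of the counts was 6.80% ± 0.480 (SD, n = 3) in control and 13.8% to 17.1% with lurbinectedin. It stood apart in teriflunomide replicate 3, at 22.6% against 8.42% and 8.43% in the other teriflunomide libraries. It also stood apart in combination replicate 2, at 24.9% against 13.1% and 14.6%. Both libraries were kept, and calls of members that changed without them are given both ways below. The small cell markers were only partly present: in control, SYP was at 16.8 CPM ± 0.765 and NEUROD1 at 4.03 CPM ± 0.317, whereas INSM1 was listed at 0 in all libraries and NCAM1 and POU2F3 did not exceed 0.34 CPM, nor CHGA 0.65 CPM. CPM is a normalised read count, scaled to a common effective library size (TMM). Among markers of other cell types, leukocyte and endothelial genes did not exceed 0.55 CPM, and the epithelial gene KRT8 was at 243 CPM in control, whereas KRT18, EPCAM and CDH1 did not exceed 0.32 CPM. COL1A1 and COL1A2, collagen genes of fibroblasts, were at 266 and 270 CPM in control and 107 and 99.9 CPM with lurbinectedin, while the fibroblast gene DCN was at or near 0. YAP1, a marker of a small cell subtype, was at 246 CPM in control and 64.9 CPM with lurbinectedin. The part of these markers in the changes below was not tested.

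The upstream sequences of the 4 members with the largest changes are shown so that their composition can be compared: MCU, MCUB and MICU2, which fell with lurbinectedin, and SLC8B1, which rose. Each is the 200 bases from 250 to 51 bases before a RefSeq start site, 5′ to 3′ on the gene's strand, in GRCh38.p14. Capitals mark matches to a CCAAT box (CCAAT) or a GC box (GGGCGG) on either strand.
MCU, chr10:72691893-72692092, plus strand: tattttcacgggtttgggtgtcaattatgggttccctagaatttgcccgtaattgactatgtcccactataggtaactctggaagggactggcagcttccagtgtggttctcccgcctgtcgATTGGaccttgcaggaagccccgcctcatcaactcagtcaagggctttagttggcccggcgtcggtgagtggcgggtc
MCUB, chr4:109559996-109560195, plus strand: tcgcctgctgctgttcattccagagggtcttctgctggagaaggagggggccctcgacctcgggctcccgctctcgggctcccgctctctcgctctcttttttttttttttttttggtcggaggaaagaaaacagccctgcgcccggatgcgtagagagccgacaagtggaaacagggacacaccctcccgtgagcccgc
MICU2, chr13:21604221-21604420, minus strand: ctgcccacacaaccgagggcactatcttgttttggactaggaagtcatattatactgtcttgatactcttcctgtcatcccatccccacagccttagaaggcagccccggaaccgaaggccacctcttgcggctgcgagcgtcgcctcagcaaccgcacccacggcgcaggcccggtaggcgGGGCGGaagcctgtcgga
SLC8B1, chr12:113335160-113335359, minus strand: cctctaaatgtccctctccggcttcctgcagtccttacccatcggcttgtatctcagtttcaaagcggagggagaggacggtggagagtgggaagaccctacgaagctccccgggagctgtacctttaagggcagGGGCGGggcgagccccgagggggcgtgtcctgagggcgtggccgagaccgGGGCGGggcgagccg
The MCU window held 1 CCAAT box, the MICU2 window 1 GC box and the SLC8B1 window 2 GC boxes, while the MCUB window held neither. A GC box stood in 35.0% and a CCAAT box in 27.4% of 35116 such windows. No member's window that was searched held an E-box (CACGTG, in 4.51% of windows), and the cyclic AMP response core (TGACG, in 16.0% of windows) was found upstream of SMDT1 only, among 8 members searched. GC content was 54.0% upstream of MCU, 59.5% for MCUB, 60.5% for MICU2 and 66.0% for SLC8B1, against a median of 57.5% over all windows. SMDT1, which was also called lower with lurbinectedin, had the highest GC content of the 8 members searched, 72.5%, and 2 GC boxes. VDAC2, which was called higher, was at 62.5% with no GC box. MCUR1 and VDAC1, which were not called, lay between VDAC2 and SMDT1 in GC content. Whether composition goes with the direction of change was not tested. The RefSeq start used for SLC8B1 lies 24384 bases inside the longest model in the count tables; for MCU, MCUB and MICU2 the difference was 12, 37 and 11 bases. The letters are a description of the windows and do not show that a factor binds there.

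With lurbinectedin, the genes of the uniporter pore and its gatekeeper fell, the exporter SLC8B1 rose, and VDAC2 and VDAC3 rose moderately. MCU fell to 0.102 times its control level, MCUB to 0.126 times and MICU2 to 0.235 times, whereas SLC8B1 rose 3.06-fold. By edgeR's quasi-likelihood test, at a Benjamini-Hochberg adjusted p under 0.05 over all genes tested, 4 of the 9 members were lower (MCU, MCUB, MICU2, SMDT1), 3 were higher (VDAC2, VDAC3, SLC8B1) and 2 did not pass (MCUR1, VDAC1). Across all genes, 71.6% passed in this comparison, 36.0% higher and 35.7% lower, so a called member is what most genes showed here. The members' median log2 fold change was -0.12 and that of all genes 0.05. In bulk samples, fewer cells of a type and less RNA per cell cannot be told apart, and a CPM is relative to the other RNA of the library. The labels do not say that libraries came from separate cultures, so p-values measure the spread between these libraries, which may be technical.

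**Figure D1:**
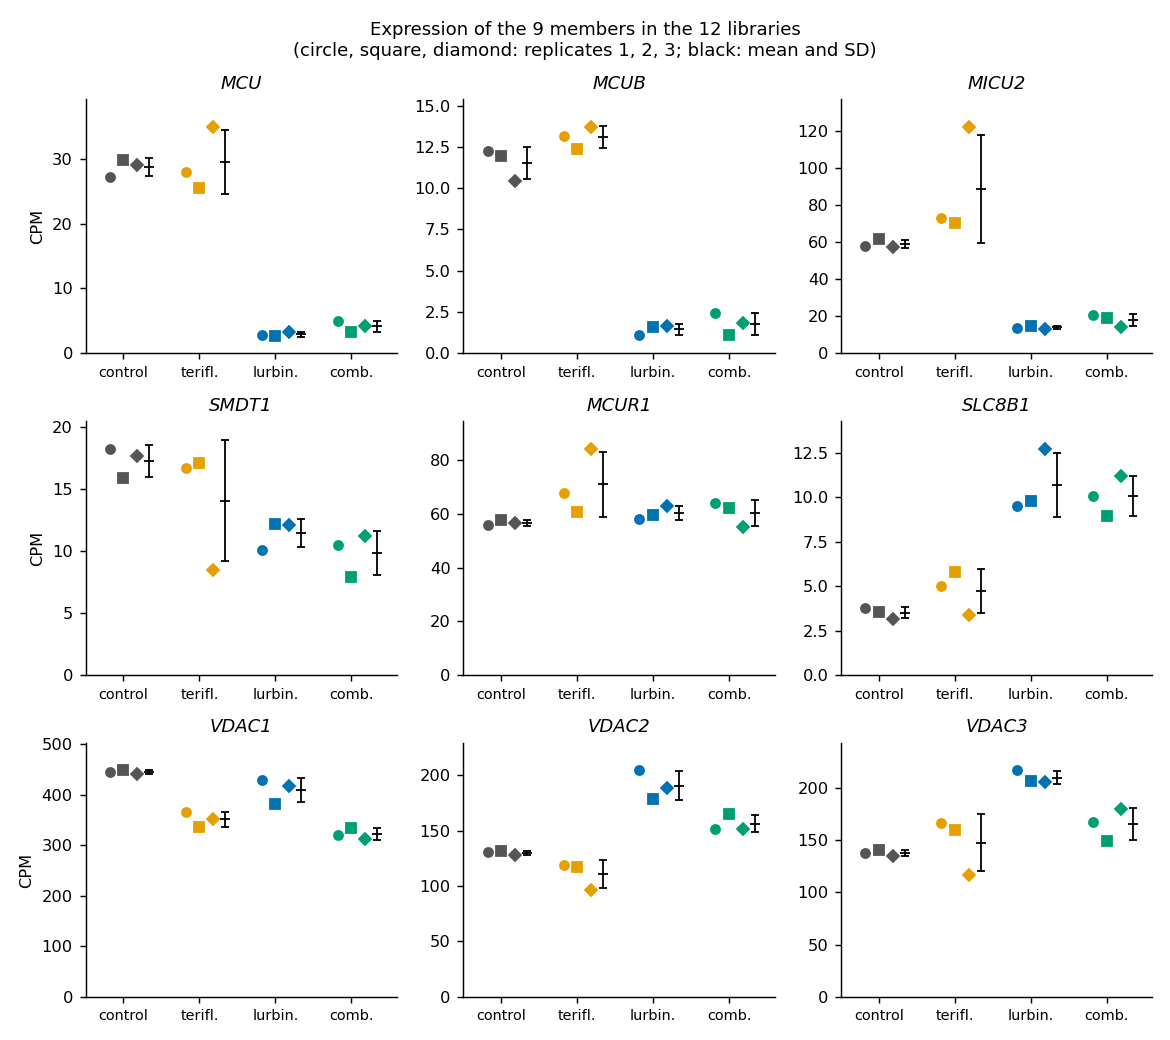
CPM of each of the 9 genes in the 12 libraries, by group (control, teriflunomide, lurbinectedin, combination), with all vertical axes starting at 0. Symbols are replicates 1, 2 and 3 and the black bar is the mean with SD of 3 libraries. MCU, MCUB and MICU2 are low in all 6 libraries that had lurbinectedin, SLC8B1 is high in them, and teriflunomide replicate 3 lies apart for MICU2, SMDT1 and MCUR1.

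MCU (ENSG00000156026.14, chr10:72692131-72887694, plus strand) encodes the pore itself. It was at 27.2, 29.9 and 29.1 CPM in the control libraries, 28, 25.5 and 35 CPM with teriflunomide, 2.86, 2.58 and 3.31 CPM with lurbinectedin and 4.92, 3.29 and 4.15 CPM with both drugs. The 6 libraries with lurbinectedin lay far below the other 6, while the teriflunomide and control libraries overlapped. The log2 fold change against control was -3.30 with lurbinectedin (SE 0.177, edgeR adjusted p = 1.54e-09) and -2.80 with both drugs (SE 0.170, edgeR adjusted p = 6.19e-09).

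MCUB (ENSG00000005059.16, chr4:109560209-109688719, plus strand), the paralogue that dampens the pore, moved with MCU. Its control values were 12.3, 11.9 and 10.4 CPM, against 13.2, 12.4 and 13.7 CPM with teriflunomide, 1.07, 1.60 and 1.64 CPM with lurbinectedin and 2.43, 1.10 and 1.85 CPM with both drugs. All lurbinectedin and combination libraries were below all others, and the lowest rested on 22 reads. The log2 fold change was -2.99 with lurbinectedin (SE 0.228, edgeR adjusted p = 4.59e-08) and -2.67 with both drugs (SE 0.220, edgeR adjusted p = 1.19e-07). MCUB shares 98 exonic bases, 2.76% of its exon length, with CASP6 on the opposite strand, and the use of strand in counting is not given in the sources used here, so reads of that stretch cannot be told apart.

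MICU2 (ENSG00000165487.14, chr13:21492691-21604181, minus strand) encodes a calcium-sensing gatekeeper of the pore. Control libraries were at 57.7, 61.4 and 57.4 CPM, teriflunomide libraries at 73.2, 70.3 and 122 CPM, lurbinectedin libraries at 13.6, 14.8 and 13.2 CPM and combination libraries at 20.6, 18.9 and 14.0 CPM. The highest value was in teriflunomide replicate 3, the library with the high mitochondrially encoded share; the other teriflunomide libraries were also above all controls. MICU2 fell by 2.09 with lurbinectedin on the log2 scale (SE 0.203, edgeR adjusted p = 5.29e-07) and by 1.72 with the combination (SE 0.199, edgeR adjusted p = 3.60e-06). With teriflunomide alone its log2 fold change of 0.59 (SE 0.191) did not pass, at an edgeR adjusted p of 0.0816, and it passed by DESeq2 at an adjusted p of 0.0420. Without teriflunomide replicate 3 and combination replicate 2 it was 0.29 (edgeR adjusted p = 0.0797).

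SMDT1 (ENSG00000183172.9, chr22:42079691-42084284, plus strand), which encodes the coupling subunit EMRE, fell less. Values were 18.3, 15.9 and 17.7 CPM in control, 16.7, 17.1 and 8.45 CPM with teriflunomide, 10.1, 12.2 and 12.1 CPM with lurbinectedin and 10.5, 7.88 and 11.3 CPM with both drugs. All libraries with lurbinectedin were below all controls, and the lowest values of the teriflunomide and combination groups were in replicate 3 and replicate 2, the libraries with the highest mitochondrially encoded shares; the part of that share was not tested. The log2 fold change was -0.59 with lurbinectedin (SE 0.223, edgeR adjusted p = 0.0291) and -0.80 with both drugs (SE 0.224, edgeR adjusted p = 0.00570). The lurbinectedin call was lost without control replicate 1 (edgeR adjusted p = 0.0746), control replicate 3 (0.0658), lurbinectedin replicate 1 (0.0975) or lurbinectedin replicate 3 (0.0529).

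MCUR1 (ENSG00000050393.11, chr6:13786557-13814568, minus strand), the assembly regulator, did not pass in any of the 6 comparisons with TMM scaling and all libraries. Against teriflunomide, the combination passed as lower with scaling to total counts alone (-0.31, edgeR adjusted p = 0.0326) and without teriflunomide replicate 2 (-0.35, adjusted p = 0.0237). It was at 55.8, 57.8 and 56.5 CPM in control, 68.0, 60.8 and 84.4 CPM with teriflunomide, 58.0, 59.6 and 63.1 CPM with lurbinectedin and 64.2, 62 and 55 CPM with both drugs. Control and combination libraries overlapped, and teriflunomide replicate 3 was again the highest. The log2 fold change with lurbinectedin was 0.09, with a 95% interval of -0.17 to 0.35, and the sign turned with scaling to total counts alone, which gave -0.14.

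SLC8B1 (ENSG00000089060.12, chr12:113298759-113359493, minus strand), the sodium-dependent calcium exporter, went the other way. Its control values were 3.79, 3.54 and 3.17 CPM, with 5.01, 5.81 and 3.37 CPM under teriflunomide, 9.55, 9.77 and 12.8 CPM under lurbinectedin and 10.1, 8.98 and 11.2 CPM under the combination. Every library with lurbinectedin was above every library without it, and teriflunomide replicate 3 lay among the controls while the other teriflunomide libraries lay above them. SLC8B1 rose by 1.61 on the log2 scale with lurbinectedin (SE 0.197, edgeR adjusted p = 5.13e-06) and by 1.53 with both drugs (SE 0.196, edgeR adjusted p = 9.84e-06).

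The outer membrane channels changed by less, and not together. VDAC1 (ENSG00000213585.11, chr5:133971871-134004975, minus strand), the most abundant member, was at 444, 448 and 440 CPM in control, 365, 337 and 351 CPM with teriflunomide, 429, 382 and 417 CPM with lurbinectedin and 320, 334 and 312 CPM with both drugs. Both groups that had teriflunomide lay below the groups that did not. The log2 fold change was -0.34 with teriflunomide (SE 0.0820, edgeR adjusted p = 0.0292) and -0.46 with both drugs (SE 0.0821, edgeR adjusted p = 0.000185). With lurbinectedin alone it was -0.12 (95% interval -0.29 to 0.06, edgeR adjusted p = 0.214), which passed as lower when only the groups compared were fitted (-0.14, adjusted p = 0.0186) and with scaling to total counts alone (-0.35, adjusted p = 0.0123).

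VDAC2 (ENSG00000165637.13, chr10:75210154-75231448, plus strand), known to hold BAK at the outer membrane, was at 130, 131 and 128 CPM in control, 119, 117 and 96.1 CPM with teriflunomide, 204, 179 and 189 CPM with lurbinectedin and 151, 165 and 152 CPM with both drugs. The combination libraries lay between the lurbinectedin and the control libraries. VDAC2 rose by 0.55 on the log2 scale with lurbinectedin (SE 0.0997, edgeR adjusted p = 0.000193) and by 0.26 with both drugs (SE 0.0995, edgeR adjusted p = 0.0300). The combination call was lost when any control library, lurbinectedin replicate 3, combination replicate 1 or combination replicate 2 was left out (edgeR adjusted p between 0.0512 and 0.108), and without the low-count filter (0.20, adjusted p = 0.263). With scaling to total counts alone, the lurbinectedin call was lost too (log2 fold change 0.32, edgeR adjusted p = 0.0707), and the combination value was 0.09 (0.609).

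VDAC3 (ENSG00000078668.14, on chromosome 8), the other channel isoform, also rose with lurbinectedin. Its values were 137, 141 and 135 CPM in control, 167, 159 and 117 CPM with teriflunomide, 217, 207 and 205 CPM with lurbinectedin and 167, 149 and 180 CPM with both drugs. Teriflunomide replicate 3 was the lowest library and lay below all controls, while the other teriflunomide libraries lay above them. VDAC3 rose by 0.61 on the log2 scale with lurbinectedin (SE 0.122, edgeR adjusted p = 0.000511), a call that scaling to total counts alone lost (0.37, adjusted p = 0.110). Its value of 0.26 with the combination (SE 0.122) did not pass, at an edgeR adjusted p of 0.0687, and it passed without teriflunomide replicate 3 (adjusted p = 0.00480), without that library and combination replicate 2 (0.000173), with a filter at 1 CPM in 3 libraries (0.0343) and when only the groups compared were fitted (0.0136). Few reads were counted for processed copies of the VDAC genes: 13 annotated VDAC1 pseudogenes held 0.255% as many counts as VDAC1, and 5 VDAC2 pseudogenes held 1.03% as many as VDAC2. How reads matching both a gene and its copies were treated is not given. These counts therefore do not show how many reads the genes and copies share.

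**Figure D2:**
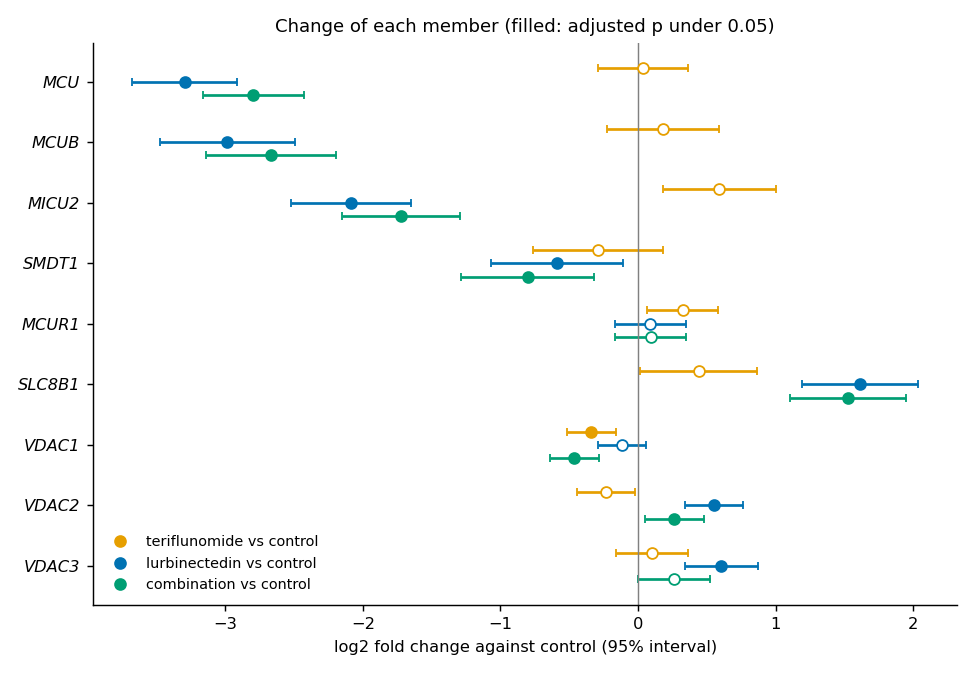
Log2 fold change against control with its 95% interval for each of the 9 genes, for teriflunomide, lurbinectedin and the combination; filled points passed at an edgeR adjusted p under 0.05. The lurbinectedin and combination points of MCU, MCUB, MICU2 and SLC8B1 lie far from 0, and the VDAC1 point is filled for teriflunomide and the combination but not for lurbinectedin.

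Per kilobase of exon, the order of the genes in control was VDAC1 at 146 CPM per kb, VDAC2 at 46.0, VDAC3 at 43.3, MICU2 at 16.3, SMDT1 at 9.99, MCUR1 at 9.36, MCU at 6.34, MCUB at 3.25 and SLC8B1 at 0.517. SMDT1 and MCUR1 were the only neighbours in that order whose control libraries overlapped. With lurbinectedin, SLC8B1 at 1.58 CPM per kb stood above MCU at 0.643 and MCUB at 0.404, and no libraries of these 3 genes overlapped. VDAC2 at 67.5 and VDAC3 at 65.9 CPM per kb did overlap, and VDAC1 remained the highest at 134. These levels depend on the exon length used in counting, which counts exons of all annotated models.

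Ratios of 2 genes within a library show how the composition of the transcripts moved, and do not depend on the scaling between libraries. They are given per kilobase with no test. The ratio of MCUB to MCU was 0.511 in control (range 0.457 to 0.575), 0.571 with teriflunomide, 0.619 with lurbinectedin (range 0.475 to 0.792) and 0.534 with both drugs, and each treated group overlapped with control. In this ratio of dampening paralogue to pore gene, no group stood apart by its range. The ratio of MICU2 to MCU was 2.57 in control (range 2.48 to 2.66), 3.68 with teriflunomide, 5.98 with lurbinectedin (range 4.99 to 7.19) and 5.44 with both drugs. The ratio of SMDT1 to MCU was 1.57 in control (range 1.39 to 1.76), 1.20 with teriflunomide, 10.3 with lurbinectedin (range 9.28 to 12.3) and 6.29 with both drugs (range 5.58 to 7.11). Transcripts of both partners were thus more abundant relative to the pore gene in all libraries with lurbinectedin than in any control. The ratio of MICU2 to MCU was also above all controls in every library with teriflunomide alone, from 3.28 to 4.39. That of SMDT1 to MCU overlapped between teriflunomide alone and control.

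In the outer membrane, the ratio of VDAC2 to VDAC1 was 0.316 in control (range 0.314 to 0.317), 0.339 with teriflunomide, 0.502 with lurbinectedin and 0.523 with both drugs. The control and teriflunomide libraries overlapped in this ratio, and those with lurbinectedin were all higher. The ratio of VDAC3 to VDAC1 was 0.297 in control, 0.399 with teriflunomide, 0.491 with lurbinectedin and 0.491 with both drugs. Here the teriflunomide libraries too were all above control, from 0.319 to 0.454.

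**Figure D3:**
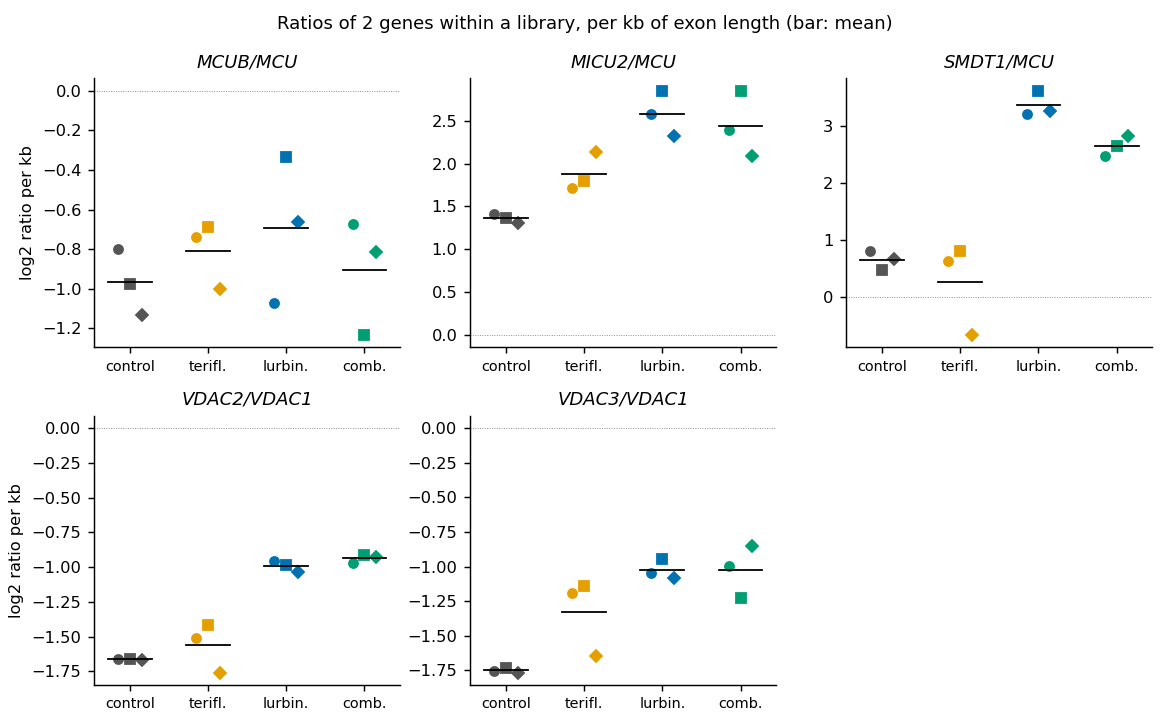
Log2 ratio of 2 genes within each library, per kb of exon length, by group; symbols are replicates 1, 2 and 3 and the bar is the group mean, and the vertical axes differ. MCUB/MCU overlaps between all groups, and the other ratios lie higher in the lurbinectedin and combination libraries than in control.

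The members differ widely in genomic span, the distance between the outer ends of their exons, which was not used to choose them. MCU spans 195.6 kb, MCUB 128.5 kb and MICU2 111.5 kb, which puts all 3 in the longest quintile of tested nuclear genes. In that quintile, the median log2 fold change with lurbinectedin was -1.86 (quartiles -3.12 and -0.91) and 83.7% of genes were called lower. MICU2 at -2.09 and MCUB at -2.99 lay within those quartiles and MCU at -3.30 lay below them. VDAC3 (14.3 kb), VDAC2 (21.3 kb), MCUR1 (28 kb) and VDAC1 (33.1 kb) fell in quintiles whose medians were 0.62 and 0.28, and all 4 lay within the quartiles of their quintile. The remaining members lay outside the quartiles. SLC8B1, at 60.7 kb, rose by 1.61 where the median of its quintile was -0.36 and the upper quartile 0.26. Its span covers all annotated models, and the RefSeq start used above lies 24384 bases inside it. Where the shorter model falls among genes of like span was not examined. SMDT1, at 4.59 kb, fell by 0.59 where the median of its quintile was 0.69 and the lower quartile -0.06. The Spearman correlation of span with log2 fold change over the 9 members was -0.583, a description of genes measured in the same libraries. The part of span in the members' changes was not tested.

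**Figure D4:**
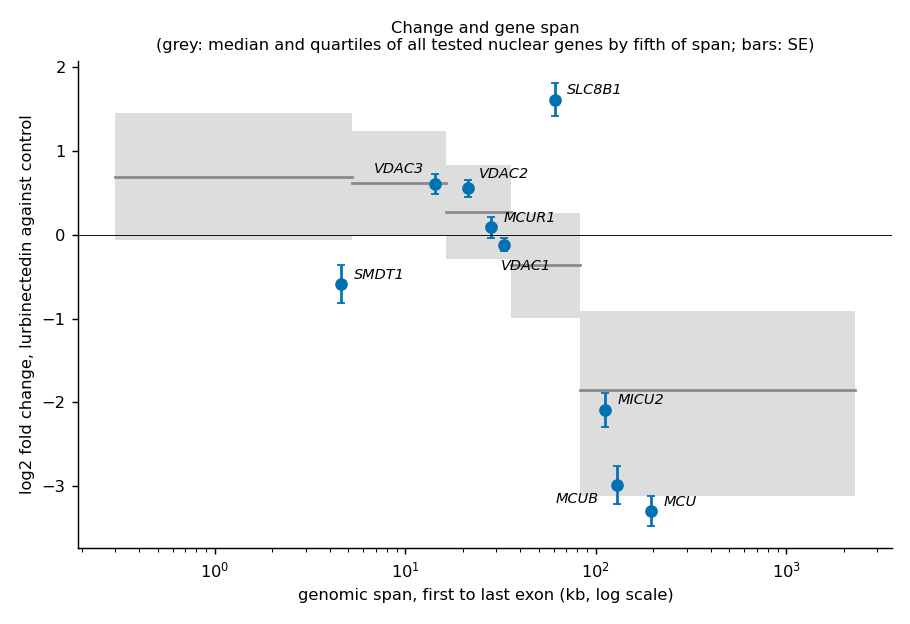
Log2 fold change with lurbinectedin against control (vertical, bars are SE) and genomic span in kb (horizontal, log scale) for the 9 genes. Grey boxes are the quartiles and grey lines the median of all tested nuclear genes in each quintile of span; SLC8B1 lies above and SMDT1 below the box of its quintile, and MCU, MCUB and MICU2 are at the long end.

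With teriflunomide alone, 1 of the 9 members passed, VDAC1, which was lower. Of all genes, 6.01% passed, 3.88% higher and 2.13% lower. The members' median log2 fold change was 0.10, and that of all genes 0.03. An unadjusted p under 0.05 was reached by 5 of the 9 members, and DESeq2 called 2, VDAC1 and MICU2. Of all 16683 genes, 4143 had an unadjusted p under 0.05 by edgeR and DESeq2 called 1890. For the members not yet given, the log2 fold changes were 0.33 for MCUR1 (adjusted p = 0.118), 0.44 for SLC8B1 (0.189), -0.23 for VDAC2 (0.168), 0.18 for MCUB (0.573), -0.29 for SMDT1 (0.423), 0.10 for VDAC3 (0.634) and 0.04 for MCU (0.903), all by edgeR. Without teriflunomide replicate 3 and combination replicate 2 these became 0.18 for MCUR1, 0.63 for SLC8B1, -0.14 for VDAC2, 0.15 for MCUB, -0.03 for SMDT1, 0.24 for VDAC3 and -0.11 for MCU. The VDAC1 call was lost without control replicate 1 (edgeR adjusted p = 0.119), 2 (0.123) or 3 (0.116), teriflunomide replicate 2 (0.0868) or lurbinectedin replicate 3 (0.0528). It was also lost with the replicate number as a block (0.0702) and without the low-count filter (0.0644), where MICU2 passed instead (0.00631). Without teriflunomide replicate 3, VDAC1 and SLC8B1 passed, the latter at 0.63 (edgeR adjusted p = 0.0242), and without that library and combination replicate 2, VDAC3 passed too at 0.24 (adjusted p = 0.0156). In these fits 1555 and 2757 of all genes passed, against 1002 with all libraries.

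With the combination against control, 5 members were lower (MCU, MCUB, MICU2, SMDT1, VDAC1) and 2 higher (VDAC2, SLC8B1), of 9. Of all genes, 68.4% passed, 34.1% higher and 34.4% lower. The members' median log2 fold change was -0.46, against 0.04 for all genes. Against teriflunomide alone, the combination had 3 members lower (MCU, MCUB, MICU2) and 2 higher (VDAC2, SLC8B1), where 70.9% of all genes passed, 35.2% higher and 35.8% lower. In that comparison the log2 fold change was -2.83 for MCU (SE 0.170, edgeR adjusted p = 5.58e-09) and 1.09 for SLC8B1 (SE 0.191, edgeR adjusted p = 0.000161). SMDT1 did not pass at -0.51 (edgeR adjusted p = 0.0546), and passed at -0.78 without teriflunomide replicate 3 (adjusted p = 6.69e-05). With all libraries it passed by DESeq2 (-0.52, adjusted p = 0.0442) and without the low-count filter (-0.55, adjusted p = 0.00500). The comparisons with control share the control libraries, and those of the combination share its libraries.

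Whether teriflunomide added to lurbinectedin was asked by comparing the combination with lurbinectedin alone. No member passed by edgeR, and 0% of all genes did; 2599 of all genes had an unadjusted p under 0.05 and DESeq2 called 584. At an unadjusted p under 0.05 there were 4 members, and DESeq2 called 1, VDAC1, which was lower (-0.34, DESeq2 adjusted p = 0.00279). The 4 were MCU at a log2 fold change of 0.50 (95% interval 0.11 to 0.89, edgeR adjusted p = 0.23), VDAC1 at -0.35 (-0.52 to -0.17, 0.151), VDAC2 at -0.29 (-0.50 to -0.08, 0.212) and VDAC3 at -0.34 (-0.60 to -0.08, 0.223). All combination libraries were below all lurbinectedin libraries for the 3 VDAC genes, while the MCU values of the 2 groups overlapped. How many of all genes separated in this way was not counted, so the separation only describes these libraries. Without teriflunomide replicate 3, which is in neither group but enters the shared estimate of spread, all 4 passed by edgeR: MCU at 0.51 (adjusted p = 0.0444), VDAC1 at -0.34 (0.00714), VDAC2 at -0.28 (0.0190) and VDAC3 at -0.34 (0.0102). In that fit 2067 of all genes passed, so the 4 members were among many.

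The interaction subtracts the teriflunomide effect seen without lurbinectedin from that seen with it. No member passed, against 0.258% of all genes, with 1 member at an unadjusted p under 0.05 and 0 called by DESeq2. Of all 16683 genes, 1726 had an unadjusted p under 0.05 by edgeR and DESeq2 called 256. The 1 member was VDAC3, at -0.44 (SE 0.173, edgeR adjusted p = 0.387): its log2 fold change for teriflunomide was 0.10 without lurbinectedin and -0.34 with it. The interaction was -0.52 for SLC8B1 (SE 0.272, adjusted p = 0.540) and 0.46 for MCU (SE 0.237, adjusted p = 0.537). Without teriflunomide replicate 3, VDAC3 passed at -0.58 (edgeR adjusted p = 0.00948). Without that library and combination replicate 2, MCU (0.74, adjusted p = 0.0115), VDAC3 (-0.51, 0.00190) and SLC8B1 (-0.64, 0.0473) passed. The interaction was called for 616 and 1839 of all genes in these fits, against 43 with all libraries.

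The other genes of the calcium pathway were followed in 4 lists, whose members rose and fell in similar numbers with lurbinectedin. Of all genes, 36.0% were called higher and 35.7% lower in this comparison, so calls in both directions are not particular to the lists. Of 12 other uniporter and mitochondrial calcium genes, 4 were higher and 4 lower, and the median change (log2) was 0.07, beside 0.05 for all genes. SLC25A23, a calcium-dependent carrier of adenine nucleotides and phosphate, fell by 1.27 (SE 0.116, edgeR adjusted p = 2.77e-07). SPG7, a subunit of the inner membrane AAA protease that processes uniporter subunits, rose by 0.88 (SE 0.111, edgeR adjusted p = 7.26e-06). MICU3, a paralogue of MICU2, fell by 1.80 (SE 0.242, edgeR adjusted p = 1.33e-05).

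Of 14 listed genes of calcium transfer from the endoplasmic reticulum, 13 were tested; 4 were higher and 6 lower, with a median of -0.15. The 6 included all 3 inositol trisphosphate receptors, the channels that release calcium next to mitochondria. ITPR2 fell from 56.0, 62.6 and 63.3 CPM in control to 0.533, 0.782 and 0.545 CPM with lurbinectedin, a difference of -6.59 on the log2 scale (SE 0.266, edgeR adjusted p = 1.55e-10). ITPR1 fell by 3.65 (SE 0.269, edgeR adjusted p = 3.05e-08) and ITPR3 by 1.76 (SE 0.183, edgeR adjusted p = 9.85e-07). The lurbinectedin libraries held only 11, 20 and 15 reads of ITPR2 and 10, 14 and 5 of ITPR1. Such low counts limit how well the size of these falls is known. The values with the combination were -6.29, -3.78 and -1.44 for ITPR2, ITPR1 and ITPR3.

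Of 15 VDAC partners and permeability transition genes, 14 were tested and SLC25A6 was listed at 0 in all libraries; 5 were higher and 5 lower with lurbinectedin, with a median of 0.16. The hexokinases, which bind VDAC at the outer membrane, were lower: HK1 fell by 1.74 (SE 0.129, edgeR adjusted p = 3.30e-08) and HK2 by 1.0 (SE 0.0833, edgeR adjusted p = 9.80e-08). PPIF, the matrix cyclophilin that sensitises the permeability transition, rose by 1.43 (SE 0.189, edgeR adjusted p = 1.18e-05). SLC25A4, a muscle-type adenine nucleotide translocator, rose by 1.55 (SE 0.112, edgeR adjusted p = 2.38e-08), and MCL1, an antiapoptotic BCL2 family protein, by 1.72 (SE 0.116, edgeR adjusted p = 1.33e-08). BAK1 and BAX, the pore formers of the outer membrane in apoptosis, were named after their values were seen; they rose by 2.05 (SE 0.263) and 1.65 (SE 0.198). Of 11 calcium-regulated enzymes and carriers, 5 were higher and 5 lower, with a median of -0.18. SLC25A13, the calcium-stimulated aspartate and glutamate carrier, fell by 3.88 (SE 0.212, edgeR adjusted p = 1.83e-09), GPD2, the calcium-activated glycerol phosphate dehydrogenase, fell by 3.03 (SE 0.212, edgeR adjusted p = 1.87e-08), and SLC25A25, another calcium-dependent nucleotide carrier, rose by 2.67 (SE 0.182, edgeR adjusted p = 1.41e-08).

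With teriflunomide alone, no gene of the uniporter, transfer or calcium-regulated lists passed by edgeR, where 6.01% of all genes did. At an unadjusted p under 0.05 there were 4, 2 and 2 genes in these lists, and DESeq2 called 2, 0 and 0. Of all 16683 genes, these counts were 4143 and 1890. Of the VDAC partners, 1 was higher and 1 lower. HK2 was at 191, 191 and 196 CPM in control and 117, 120 and 118 CPM with teriflunomide, and fell by 0.71 on the log2 scale (SE 0.0827, edgeR adjusted p = 0.000545). SLC25A4 rose by 0.45 (SE 0.111, edgeR adjusted p = 0.0313). Without teriflunomide replicate 3 and combination replicate 2, 3 VDAC partners were higher and 4 lower. In that fit 1 uniporter gene and 1 transfer gene were lower, and 2 calcium-regulated genes were higher and 1 lower. The same fit called 2757 of all genes. PPIF was at 140, 126 and 69 CPM with teriflunomide against 159, 165 and 161 CPM in control, and did not pass (-0.54, edgeR adjusted p = 0.102).

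**Figure D5:**
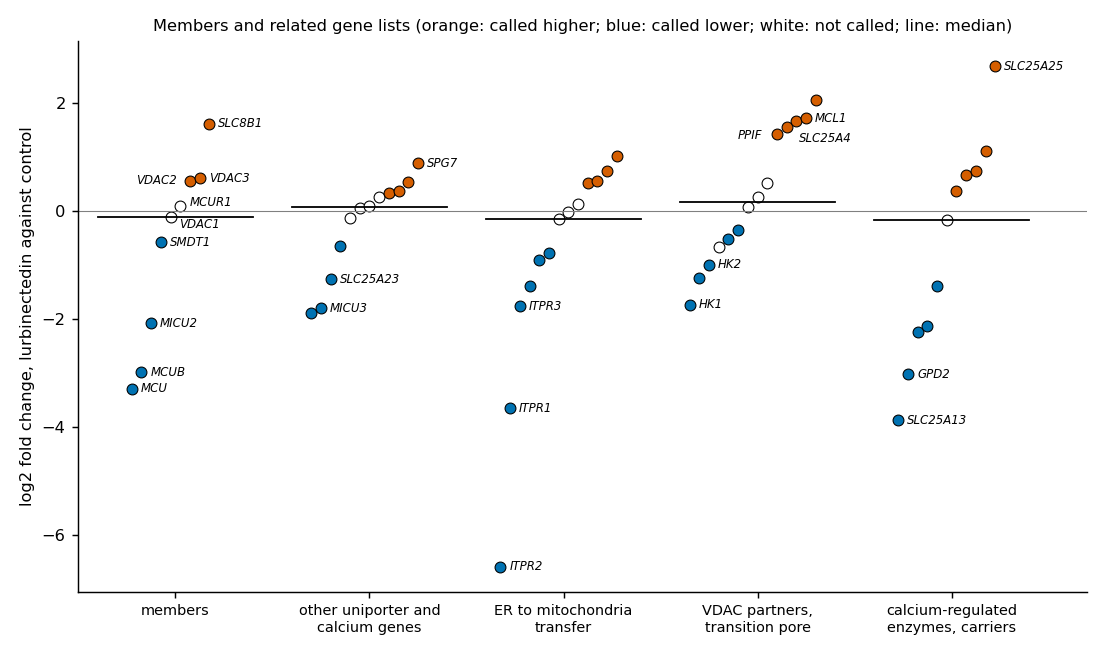
Log2 fold change with lurbinectedin against control for the 9 genes and 4 related lists, each point a gene and each line the list's median. Orange points were called higher and blue points lower at an edgeR adjusted p under 0.05; each list holds both, and its median is near 0.

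For each member, the gene with the most similar pattern over the 12 libraries was found by Pearson's r of log2 CPM among 10435 genes, as a description without a test, since the points share libraries and groups. MCU was most like AGTPBP1 (r = 0.999), MCUB like CAMTA1 (0.998), MICU2 like SCFD1 (0.999), SLC8B1 like WBP2 (0.990), VDAC2 like RPL19 (0.997) and VDAC3 like HINT1 (0.987). Pearson's r does not compare the size of a change. With lurbinectedin the log2 fold change was -1.12 for CAMTA1 against -2.99 for MCUB, and -1.45 for SCFD1 against -2.09 for MICU2. For WBP2 it was 0.90 against 1.61 for SLC8B1. Sizes were closer for AGTPBP1 (-3.05) and MCU (-3.30), and for RPL19 (0.56) and VDAC2 (0.55). SMDT1 was most like ABCB8 (0.974), VDAC1 like GEMIN5 (0.949) and MCUR1 like CDC5L (0.940). Such patterns were common for some members and rare for others: 3056 genes had an r over 0.9 with MCU, 1297 with SLC8B1, 156 with SMDT1, 138 with VDAC3, 16 with MCUR1 and 12 with VDAC1. Among the members, r was 0.989 between MCU and MCUB, 0.971 between MCU and MICU2 and -0.934 between MCU and SLC8B1, and it was 0.246 between MCU and VDAC1.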

How the data were processed

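Gene-level raw counts, deposited by the authors in 1 table per library, were used for 12 libraries; the tables have the featureCounts layout per the file headers. The submitters' processing notes name fastp 0.23.2, STAR 2.7.9, Subread, featureCounts and hg38; strand use, multi-mapping and the annotation release are not given in the sources used here. Of the gene IDs, 37318 had the same version in GENCODE 29, all at identical positions. Per the labels' protocols, polyadenylated RNA was made into libraries with the KAPA mRNA HyperPrep kit. Symbols were found for 60507 of 60649 IDs (99.77%). Samples were grouped by the treatment label.

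Counts were filtered with filterByExpr, scaled by TMM and fitted with 1 mean per group in edgeR 4.0.16 (R 4.3.3), by the robust quasi-likelihood test, with Benjamini-Hochberg adjustment over 16683 genes in each of 6 contrasts; a gene was called at an adjusted p under 0.05. The biological coefficient of variation was 14.5%. The fit was also run on simulated data in which few genes changed and all genes shared 1 dispersion. With lurbinectedin most genes passed, so the simulation does not show how the fit behaves on such data. Standard errors come from the F statistic. log2 CPM used a prior count of 2. Precision is limited by 3 libraries per group.

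Alternatives were DESeq2 1.42.0, its size factors, total counts, other count filters, a replicate block, fewer groups, other thresholds and left-out libraries. All 9 members were named. From each related list, up to 3 genes with the smallest adjusted p with lurbinectedin were named, and ITPR3, HK2 and PPIF always; the values of some listed genes are not reported here. Genes compared for likeness had a mean of at least 5 CPM. The members and lists were chosen with earlier results of these data known. Promoter sequences are from RefSeq (GRCh38.p14) and were matched by symbol for 8 of the members described. VDAC3 was left out and not searched.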

Additional observations from a re-analysis of the deposited data

How the results depend on the processing

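The 7 members called with lurbinectedin against control and the 7 with the combination fell to 4 and 4 when tested against a 1.5-fold change, and stayed within 1.5 times of those counts in the other settings. Of all 16683 genes, the calls fell from 11953 to 8028 and from 11418 to 7267 when tested against that change. The drop in members called is thus not particular to them. The count of 1 with teriflunomide alone became 0 with total counts only, with the replicate block, with only the groups compared, at an adjusted p under 0.01 and against a 1.5-fold change. It became 2 with DESeq2, 0 to 2 with 1 library left out, and 3 without teriflunomide replicate 3 and combination replicate 2, a setting chosen after seeing the data. The count of 0 for the combination against lurbinectedin became 1 with DESeq2, 0 to 4 with 1 library left out and 4 without those 2 libraries; for the interaction it became 0 to 1 and 3. The fold change of MCU with teriflunomide turned to -0.0613 with total counts only, ranged from -0.11 to 0.13 with 1 library left out and was -0.11 without both libraries. With total counts only, MCUR1 turned to -0.14 with lurbinectedin and -0.0799 with the combination, and the median of all genes moved from 0.05 to -0.18 and from 0.04 to -0.13. The share of higher calls moved from 50.2% to 39.2% and from 49.8% to 41.0%. None of 80 settings moved a log2 ratio by over 1 SD. Most of them left out 1 of 3 libraries, which cannot move a mean by 1 SD of those 3. For these the outcome was fixed in advance, and it does not show that the ratios are stable. The mitochondrially encoded share was 5.58% in control and 11.8% with lurbinectedin over protein-coding genes alone.

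Over all genes, calls with teriflunomide numbered 1002 with all libraries and settings as above and 33 to 2757 in the others, with 415 under the replicate block. For the combination against lurbinectedin they were 0 and up to 3640, and for the interaction 43 and 1 to 1839. No pairing by replicate number was seen: deviations of same-numbered libraries correlated between -0.402 and 0.144, over 0.1 in 1 of 18 pairs. Only 2 libraries correlated best with their own number. With 3 libraries per group, these correlations cannot show that the libraries were prepared without pairing. Low counts limit MCUB, at 22 to 449 reads, MCU, at 59 to 1028, and SLC8B1, at 99 to 351.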
